A study of Mus musculus with 5 samples.

Results

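The immediate early genes examined here are Fos, Fosb, Jun, Junb, Egr1, Nr4a1, Npas4, Arc, Dusp1 and Ier2. They were chosen by name as 10 rows of the 23234 in the authors' gene table, and the authors tested all 10 for a difference between groups. Immediate early genes are transcribed within minutes of a stimulus from factors already present in the cell, chiefly serum response factor with its ternary complex partners and the cAMP response element binding protein CREB, and need no new protein. In neurons they follow calcium entry and growth factor signalling through MAP kinases, and the stress of dissociating a tissue induces many of them as well. Most encode transcription factors, while others encode effectors at the synapse or enzymes that switch the signal off.

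RNA came from CD1 mouse cortex electroporated in the embryo at E12.5 and collected at E15.5. The cells of 3 samples had received a construct for Ptf1a with GFP, and those of 2 samples a GFP-only construct. Ptf1a is a basic helix-loop-helix factor of inhibitory neurons and of the pancreas, and the study asked whether it gives cortical pyramidal cells an inhibitory, peptide-producing identity. Every sample of either group was a pool of 3 to 6 brains, dissociated and sorted for GFP before RNA was taken, so both groups went through dissociation and sorting. The promoter of the constructs and the time from dissection to lysis are not given in the sources used here. PIG, the heading beside GFP in the table, was taken to mean the Ptf1a construct. Values are in FPKM, fragments scaled to transcript length and to the fragments sequenced, with 1 value per group as the authors merged it, so the spread between samples and the read depth of each sample were not analysed here. P-values of the authors' test measure the spread between these pooled samples as their model estimated it. Genes rose or fell, as the words are used here, where the deposited q, the p adjusted over all tested genes, was under 0.05. Ptf1a itself stood at 38.9 FPKM in the Ptf1a group and 0.210 FPKM in the GFP-only group.

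All 6 pyramidal neuron markers were detected, among them, chosen after its values were seen, the pyramidal factor Neurod6 at 1190 FPKM in the Ptf1a group and 1717 FPKM in the GFP-only group, and 5 of them fell. All 8 radial glia markers rose, with a summed level of 3455 FPKM in the Ptf1a group and 1801 FPKM in the GFP-only group. Most of that sum was Fabp7, named after its values were seen, at 3095 FPKM and 1652 FPKM in the same order. Of 5 intermediate progenitor markers 4 rose. Over all tested genes 18.7% rose and 19.1% fell. Immediate early genes are also active in vessel, immune and blood cells. Endothelial markers, 8 genes, summed to 7.17 FPKM in the Ptf1a group and 4.40 FPKM in the GFP-only group, with 1 of 3 tested risen. Microglia markers, 10 genes, summed to 14.0 FPKM in the Ptf1a group and 18.8 FPKM in the GFP-only group, with 1 of 7 tested fallen. Mural markers summed to 3.98 FPKM in the Ptf1a group and 2.11 FPKM in the GFP-only group, with 2 risen and 1 fallen of 3 tested. Meningeal markers summed to 2.68 FPKM in the Ptf1a group and 4.11 FPKM in the GFP-only group, with 1 of 2 tested fallen. Of 8 red blood cell markers 6 had a value, and the rest, globin genes, are missing from the sum. These 6 summed to 62.7 FPKM in the Ptf1a group and 150 FPKM in the GFP-only group, with 3 of 6 tested fallen. Interneuron markers summed to 15.6 FPKM in the Ptf1a group and 7.11 FPKM in the GFP-only group, with 4 of 5 tested risen. Of all these markers only the meningeal factor Foxc1, named after its value was seen, was listed at 0, in the GFP-only group. The part of these shifts in the results that follow was not tested, and in bulk RNA fewer cells of a type and less RNA per cell cannot be told apart.

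The 10 genes did not move together. Egr1 and Arc rose to several times their GFP-only level, while Npas4, Junb, Dusp1, Nr4a1 and Jun fell, Npas4 the most. Fos, the most abundant of them, stood at nearly the same level in both groups, and neither Fosb nor Ier2 was called. With 2 risen and 5 fallen, 7 of the 10 were called, or 70.0%, against 37.7% of all 11876 tested genes, of which 18.7% rose and 19.1% fell. Their median difference in log2(FPKM + 0.1), Ptf1a minus GFP-only, was -0.36, against -0.01 over all tested genes. A two-sided normal p taken from the authors' test statistic, adjusted over tested genes, gave fewer calls than their own p. It called 3 of the 10, against 6.1% of all tested genes: Egr1 and Arc rose (3.3% of tested genes did) and Npas4 fell (2.8%). These 3 genes were also the called ones whose FPKM, with 0.1 added, differed by 2-fold or more (8.54% of tested genes), and 6 of the 10 reached 1.5-fold (20.7% of tested genes). In every comparison the authors' test is the only measure of error, and it is given below as the standard error implied by the deposited log2 fold over the deposited test statistic.

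**Figure D1:**
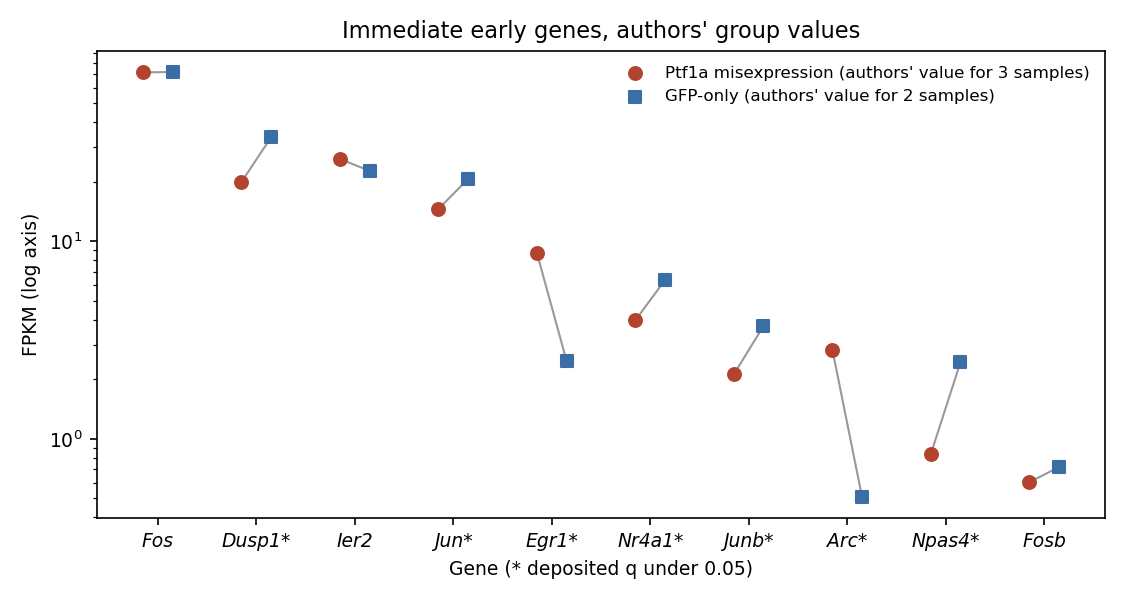
Level of each immediate early gene in FPKM on a log axis, with the authors' value for the 3 Ptf1a samples as a circle on the left and that for the 2 GFP-only samples as a square on the right. Lines join the groups of 1 gene, genes run from the highest mean level to the lowest, and Egr1 and Arc are the genes whose line descends steeply to the GFP-only value.

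Sequences upstream of the gene starts are shown for 4 members. They hold more copies of the CREB half-site TGACG than the other members whose windows were used. Npas4, Dusp1 and Nr4a1 fell, and Fos was not called. RefSeq (GRCm38.p6, a later build than the mm9 of the expression table) gave a window for Fos, Fosb, Jun, Junb, Npas4, Nr4a1 and Dusp1, and none was used for Egr1, Arc and Ier2. Each run is the 250 bases before the gene start, 5′ to 3′ on the gene's strand, with the CREB half-site TGACG on either strand, CGTCA when read on the other one, in capitals. Where the full palindrome TGACGTCA occurs, as in Dusp1, its overlapping half-sites make 1 run of capitals.
Npas4, chr19:4989972-4990221, minus strand: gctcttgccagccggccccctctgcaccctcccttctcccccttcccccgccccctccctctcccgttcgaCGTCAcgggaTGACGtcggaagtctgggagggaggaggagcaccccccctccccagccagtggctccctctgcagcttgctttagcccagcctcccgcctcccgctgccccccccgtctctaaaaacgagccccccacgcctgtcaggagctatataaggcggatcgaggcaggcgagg
Dusp1, chr17:26508473-26508722, minus strand: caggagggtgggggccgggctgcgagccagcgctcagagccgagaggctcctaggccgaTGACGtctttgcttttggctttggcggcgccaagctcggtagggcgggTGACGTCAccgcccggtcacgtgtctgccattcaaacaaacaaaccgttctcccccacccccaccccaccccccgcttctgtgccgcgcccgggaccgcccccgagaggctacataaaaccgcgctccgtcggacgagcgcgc
Nr4a1, chr15:101266596-101266845, plus strand: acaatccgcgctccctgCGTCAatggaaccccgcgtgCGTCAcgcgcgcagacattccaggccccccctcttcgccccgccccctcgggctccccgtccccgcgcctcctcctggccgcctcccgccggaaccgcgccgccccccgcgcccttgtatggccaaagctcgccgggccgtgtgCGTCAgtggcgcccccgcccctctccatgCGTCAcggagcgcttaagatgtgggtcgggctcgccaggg
Fos, chr12:85473640-85473889, plus strand: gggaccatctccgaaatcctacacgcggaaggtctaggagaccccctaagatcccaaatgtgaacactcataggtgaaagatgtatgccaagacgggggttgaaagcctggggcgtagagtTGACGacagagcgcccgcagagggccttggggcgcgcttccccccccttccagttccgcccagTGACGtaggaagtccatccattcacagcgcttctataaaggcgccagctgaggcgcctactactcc

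Half-sites numbered 2 in Npas4, 3 in Dusp1, 4 in Nr4a1 and 2 in Fos, counting both strands. Over all 7 windows, 6 held at least 1 half-site, with Fosb and Junb holding 1 each and Jun none, against 17.8% of 32851 RefSeq windows of the same length. The full palindrome occurred in Dusp1 alone of the 7, against 1.55% of all windows. Of the 6 genes with a half-site, Npas4, Dusp1, Nr4a1 and Junb fell while Fos and Fosb were not called, and Jun, which fell, held none. The E-box CANNTG, the letters that basic helix-loop-helix factors such as Ptf1a bind, was present in 5 of the 7 windows and in 66.2% of all windows. Among fallen genes it was present in the windows of Jun, Junb and Dusp1 and absent from those of Npas4 and Nr4a1. Neither the AP-1 site TGANTCA (6.75% of all windows) nor the CArG box of serum response factor (1.47%) occurred in any of the 7. Sequence beyond these short windows was not searched, and no matches are reported for Egr1, Arc and Ier2. Member windows on chromosome 18, where Egr1 lies, were left out of these counts, while the counts over all windows left out no chromosome. The absence of AP-1 and CArG matches therefore cannot show that the genes lack such sites. The member windows were rich in G and C, with a median of 68.4% against 52.4% over all windows, and this difference in composition was not adjusted for. These matches describe letters and not bound sites, and sites within the windows that vary from these patterns were not counted. No window was used for Egr1 or Arc, the risen members, so the counts set fallen genes beside uncalled ones only.

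Fos and Fosb encode the Fos-type subunit of the AP-1 dimer, which binds DNA only with a partner of the Jun type. Fos (chromosome 12, 86814851 to 86818219, mm9) was at 71.6 FPKM in the Ptf1a group and 71.9 FPKM in the GFP-only group. The authors' deposited table gives Fos a log2 fold of -0.01 with q = 0.967, and the implied standard error was 0.22. An interval of 1.96 such errors ran from -0.44 to 0.43. Fosb (chromosome 7, 19888045 to 19895394, mm9), induced by the same signals, was the least abundant member in the Ptf1a group, with 0.603 FPKM in the Ptf1a group and 0.719 FPKM in the GFP-only group. For Fosb the authors' deposited table lists a log2 fold of -0.25 with q = 0.532, and the interval of -1.44 to 0.94 was the widest of the 10. Neither Fos gene was called.

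Jun and Junb encode the Jun-type partners, of which Jun is a strong activator and Junb a weaker one that can restrain it. Both fell. Jun (chromosome 4, 94715727 to 94718913, mm9) was at 14.6 FPKM in the Ptf1a group and 20.7 FPKM in the GFP-only group, a log2 fold of -0.51 (implied standard error 0.26) with q = 0.000612 in the authors' deposited table. Junb (chromosome 8, 87500808 to 87502647, mm9) was at 2.12 FPKM in the Ptf1a group and 3.72 FPKM in the GFP-only group, a log2 fold of -0.81 (implied standard error 0.46) with q = 0.00613 in the authors' deposited table. Both falls were within 2 implied standard errors of 0 and were not called by the normal p. Added together, the Jun-type genes came to 16.7 FPKM in the Ptf1a group and 24.4 FPKM in the GFP-only group, while the Fos-type genes came to 72.2 FPKM in the Ptf1a group and 72.7 FPKM in the GFP-only group. Fos therefore made up 80.5% of the summed level of these 4 AP-1 genes in the Ptf1a group and 74.1% in the GFP-only group, a description with no test.

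Egr1 encodes a zinc finger transcription factor that is a standard readout of MAP kinase signalling through serum response factor. Egr1 (chromosome 18, 35020861 to 35024610, mm9) was at 8.70 FPKM in the Ptf1a group and 2.49 FPKM in the GFP-only group. The authors' deposited table gives Egr1 a log2 fold of 1.81 (implied standard error 0.36) with q = 0.000329, the lowest q in that table and one shared by 1803 genes. The Egr1 difference was above that of 97.4% of tested genes, and it was still called by the normal p.

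Nr4a1 encodes an orphan nuclear receptor, also called Nur77, that many stimuli induce. Nr4a1 (chromosome 15, 101097277 to 101105225, mm9) was at 3.99 FPKM in the Ptf1a group and 6.35 FPKM in the GFP-only group, a log2 fold of -0.67 (implied standard error 0.35) with q = 0.00113 in the authors' deposited table. That fall was also within 2 implied standard errors of 0, and the normal p did not call it.

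Npas4 encodes a basic helix-loop-helix PAS factor that responds to calcium entry in neurons rather than to growth factors, and that shapes inhibitory synapses onto excitatory neurons. Npas4 (chromosome 19, 4984355 to 4989971, mm9) was at 0.840 FPKM in the Ptf1a group and 2.44 FPKM in the GFP-only group. Its log2 fold in the authors' deposited table was -1.54 (implied standard error 0.51) with q = 0.000329, the largest fall among the 10. Only 0.867% of tested genes had a lower difference, and the call held with the normal p. Its level in the Ptf1a group lay below 1 FPKM.

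Arc encodes a cytoskeleton-associated protein of dendrites that promotes removal of AMPA receptors from synapses. Arc (chromosome 15, 74499513 to 74503000, mm9) was at 2.82 FPKM in the Ptf1a group and 0.510 FPKM in the GFP-only group. The authors' deposited table gives Arc a log2 fold of 2.47 (implied standard error 0.59) with q = 0.000329, the largest rise among the 10. On the log2(FPKM + 0.1) scale the rise was 2.26, and with a pseudocount of 1 it was 1.34, because the GFP-only level was low. Arc was called by the normal p as well, and its difference was above that of 98.4% of tested genes. Arc and Npas4, the members most closely tied to synaptic activity, thus lay at opposite ends of the 10, as the plot of fold changes shows.

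**Figure D2:**
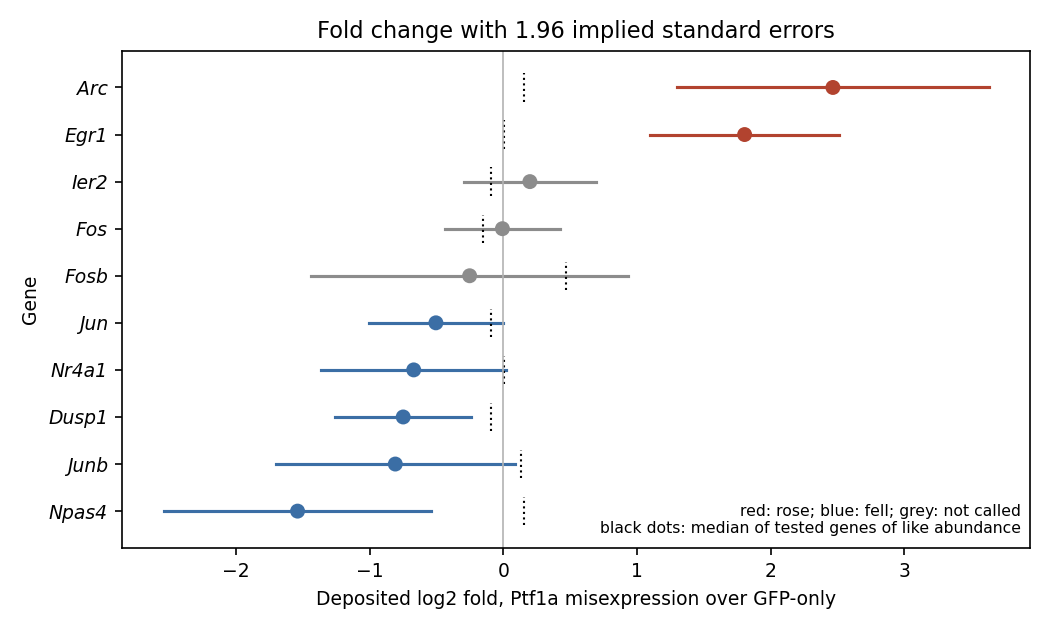
Deposited log2 fold, Ptf1a misexpression over GFP-only, for each gene, with a line of 1.96 implied standard errors to either side and dotted marks at the median difference of tested genes of like abundance. Arc and Egr1 lie clear of 0 on the right and Npas4 and Dusp1 clear of it on the left, while the lines of Junb and Nr4a1 cross 0 and that of Jun ends at it.

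Dusp1 encodes a nuclear phosphatase that inactivates MAP kinases and so closes the loop that induced it. Dusp1 (chromosome 17, 26642536 to 26645417, mm9) was at 20.0 FPKM in the Ptf1a group and 33.6 FPKM in the GFP-only group, a log2 fold of -0.75 (implied standard error 0.26) with q = 0.000329 in the authors' deposited table. Dusp1 was not called by the normal p, although its interval of -1.26 to -0.24 lay below 0. Ier2 (chromosome 8, 87185230 to 87186751, mm9), a short nuclear protein of the primary response, was at 26.1 FPKM in the Ptf1a group and 22.7 FPKM in the GFP-only group. The authors' deposited table lists Ier2 at a log2 fold of 0.20 with q = 0.249, and its interval ran from -0.29 to 0.69. Ier2 and Junb lie 314056 bases apart on the same chromosome, and of this pair only Junb was called; the difference between their changes was not tested.

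Ranked by level, the genes ran Fos, Ier2, Dusp1, Jun, Egr1, Nr4a1, Arc, Junb, Npas4 and Fosb in the Ptf1a group. In the GFP-only group the order was Fos, Dusp1, Ier2, Jun, Nr4a1, Junb, Egr1, Npas4, Fosb and Arc. Arc thus stood last among the GFP-only levels and Egr1 below Junb, whereas in the Ptf1a group Arc stood above Junb and Egr1 above Nr4a1. FPKM is per transcript length, so levels can be set side by side, but no error of a level was available and the order of near neighbours is uncertain.

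Abundance moved with the groups across the whole table. With tested genes split into 10 bins by mean FPKM, the median difference was 0.47 in the weakest bin and -0.32 in the most abundant. Against the median of their own bin, the called genes kept their direction, with differences of 2.10 for Arc, 1.76 for Egr1, -0.41 for Jun, -0.66 for Dusp1 and for Nr4a1, -0.91 for Junb and -1.59 for Npas4. Fos lay 0.15 above its bin, Ier2 0.29 above and Fosb 0.69 below on that scale, and none of these was called. Summed over all rows, FPKM came to 752115 in the Ptf1a group and 916612 in the GFP-only group. Rescaling both to the same sum moved the median of all tested genes up by 0.28 and left the sign of the 7 called genes as it was, with Jun at -0.22. Uncalled Fos and Fosb then stood at 0.28 and 0.03.

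**Figure D3:**
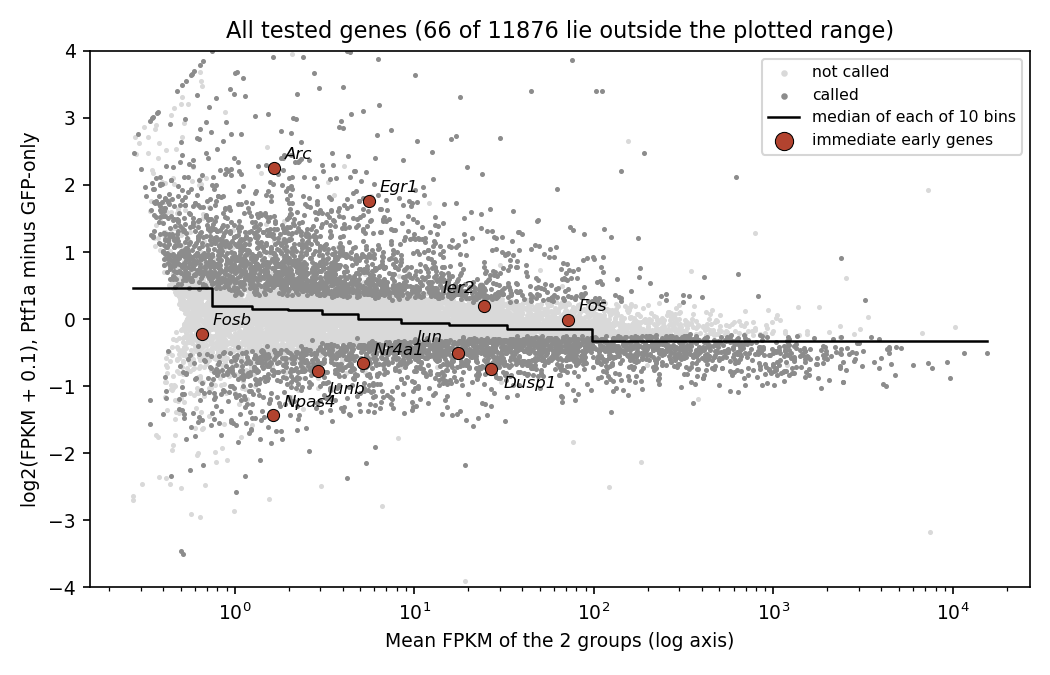
Difference in log2(FPKM + 0.1), Ptf1a minus GFP-only, of all 11876 tested genes against their mean FPKM on a log axis, with the median of each of 10 bins as a black line and the immediate early genes as labelled points. Arc and Egr1 lie near the upper edge of the cloud at their abundance and Npas4 near its lower edge, while Fos lies close to the line; 66 genes fall outside the plotted range.

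The 10 genes had short loci, a trait that their selection did not use. Their loci in the table spanned a median of 3428.5 bases, against 18755 bases over all rows. In the GENCODE M21 annotation, Jun, Junb and Ier2 were single-exon genes, 3 of 10, against 2.34% of 10250 tested genes matched by symbol. The median number of exons was 3.5 against 9, though Npas4 and Nr4a1 had 8 each. Median transcript length was 2804 bases, against 2939 over the matched tested genes. The pentamer ATTTA, a mark of the AU-rich elements that speed mRNA decay, occurred in the 3′ untranslated region of 8 of the 10, all but Arc and Ier2, against 67.0% of tested genes. Median density over the 10 was 2.44 per kilobase, against 1.38 over tested genes. Dusp1 had the highest, 5.80, followed by Nr4a1 at 5.52 and Fos at 4.91, while Npas4 had 1.40 and Fosb 0.47. The 5 fallen genes and Fos all held the pentamer, and so did Egr1, which rose.

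Other immediate early genes were set beside the 10, from a list of 38, of which 30 were tested and 8 were not. The list was divided in direction as well, with 6 risen and 9 fallen, a share of 50.0% called against 37.7% of all tested genes. Its median difference was -0.07, against -0.01 over all tested genes. Nr4a2, a receptor related to Nr4a1, fell, with 4.31 FPKM in the Ptf1a group and 10.9 FPKM in the GFP-only group. Nfil3, a bZIP repressor, fell to 7.05 FPKM in the Ptf1a group, against 16.8 FPKM in the GFP-only group. Rises were led by the antiproliferative gene Btg2, at 36.3 FPKM in the Ptf1a group and 14.6 FPKM in the GFP-only group, and by Cyr61, a secreted matrix protein, at 14.6 FPKM in the Ptf1a group and 6.24 FPKM in the GFP-only group. Btg2 is also on the list of intermediate progenitor markers, of which 4 of 5 rose. Of uncalled genes the most abundant were Gadd45g (66.7 FPKM in the Ptf1a group and 55.9 FPKM in the GFP-only group) and Plk2 (57.2 FPKM in the Ptf1a group and 66.9 FPKM in the GFP-only group). Relatives of Egr1, chosen after their values were seen, were weak. Egr2 rose, with 0.756 FPKM in the Ptf1a group and 0.310 FPKM in the GFP-only group (q = 0.0111 in the authors' deposited table). Its log2 fold of 1.28 (implied standard error 0.79) was within 2 such errors of 0. Egr3 (0.239 FPKM in the Ptf1a group and 0.121 FPKM in the GFP-only group) had no test. Nor had Egr4 (0.0475 FPKM in the Ptf1a group and 0.0212 FPKM in the GFP-only group).

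Genes for bZIP partners of the Fos and Jun proteins numbered 15 in the table and 10 among tested genes, with 3 risen and 1 fallen. Nfe2l2, which encodes the antioxidant factor Nrf2 and pairs mainly with small Maf proteins, rose most, with 3.54 FPKM in the Ptf1a group and 0.569 FPKM in the GFP-only group. Atf7 rose, with 2.20 FPKM in the Ptf1a group and 1.47 FPKM in the GFP-only group. Atf2, another partner of Jun at CREB-like sites, rose too, with 9.90 FPKM in the Ptf1a group and 7.22 FPKM in the GFP-only group. Jund, the Jun family member that is expressed without stimulation, fell as Jun and Junb did, with 9.33 FPKM in the Ptf1a group and 12.3 FPKM in the GFP-only group. The share called was 40.0%, near that of all tested genes. Mafg and Batf3 were not called.

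Of 9 other MAP kinase phosphatases 5 were tested, 2 rose and 0 fell, a share of 40.0% called that is near the 37.7% of all tested genes; no row of this list was called by the normal p and 0 reached 2-fold. Dusp10 rose, with 1.48 FPKM in the Ptf1a group and 0.906 FPKM in the GFP-only group, and Dusp6, a cytoplasmic member of the family, rose with 9.54 FPKM in the Ptf1a group and 6.76 FPKM in the GFP-only group. Dusp8 and Dusp4 were not called. Their relative Dusp1 fell, but the difference between Dusp1 and these genes was not tested.

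Among 37 genes that induce immediate early genes, 34 were tested, 8 rose and 7 fell, a share of 44.1% called against 37.7% of all tested genes. Srf, which encodes serum response factor, rose, with 2.24 FPKM in the Ptf1a group and 1.26 FPKM in the GFP-only group. The Srf log2 fold of 0.83 (implied standard error 0.43) was within 2 such errors of 0. Elk3 rose, with 1.14 FPKM in the Ptf1a group and 0.365 FPKM in the GFP-only group. It encodes a ternary complex partner of serum response factor that can repress as well as activate. Rps6ka4, a kinase of CREB and histone H3, fell to 1.24 FPKM in the Ptf1a group, against 3.18 FPKM in the GFP-only group. Camk2b, a calcium-dependent kinase of neurons, fell to 9.89 FPKM in the Ptf1a group, against 17.6 FPKM in the GFP-only group. Map2k2, a kinase of the MAP kinase cascade, was not called. The median difference of the list was 0.21, and it was 0.00 against the medians of like abundance.

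Late activity response genes, which follow immediate early factors within hours in neurons, had 10 tested of 19, with 2 risen and 5 fallen, or 70.0% called against 37.7% of all tested genes. Bdnf, a neurotrophin, fell to 0.940 FPKM in the Ptf1a group, against 1.82 FPKM in the GFP-only group. Pcsk1, a prohormone convertase, fell to 0.229 FPKM in the Ptf1a group, against 0.818 FPKM in the GFP-only group. Sorcs3, a sorting receptor, rose to 1.57 FPKM in the Ptf1a group, against 0.262 FPKM in the GFP-only group, and Gpr3, a receptor that raises cAMP, rose to 0.718 FPKM in the Ptf1a group, against 0.325 FPKM in the GFP-only group. Inhba and Homer1 were not called. Of the 19 genes 12 lay under 1 FPKM in both groups, and 1 of the 10 tested, Sorcs3, was called by the normal p, against 6.1% of all tested genes.

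Genes of heat shock and other responses to dissociation had 16 tested of 23, with 4 risen and 3 fallen, a share of 43.8% called against 37.7% of all tested genes. The risen genes were the metallothioneins Mt1 and Mt2, the NF-kappa-B inhibitor gene Nfkbia and the cytokine signalling inhibitor gene Socs3, and the fallen ones were the chaperone genes Dnajb4, Hspe1 and Hsp90aa1 (Socs3, Hspe1 and Hsp90aa1 named after their values were seen). Mt2 stood at 70.7 FPKM in the Ptf1a group and 25.6 FPKM in the GFP-only group, Mt1 at 109 FPKM in the Ptf1a group and 43.7 FPKM in the GFP-only group, and Nfkbia at 164 FPKM in the Ptf1a group and 64.4 FPKM in the GFP-only group. Dnajb4, a co-chaperone, fell to 3.95 FPKM in the Ptf1a group, against 6.38 FPKM in the GFP-only group. Hspa8 (2892 FPKM in the Ptf1a group and 3218 FPKM in the GFP-only group) and Hsp90ab1 (752 FPKM in the Ptf1a group and 826 FPKM in the GFP-only group) were not called. The inducible heat shock genes Hspa1a (0.117 FPKM in the Ptf1a group and 0.0193 FPKM in the GFP-only group) and Hspa1b (0.0314 FPKM in the Ptf1a group, and listed at 0 in the GFP-only group), chosen after their values were seen, had no test. They are near-identical copies whose reads may be hard to tell apart, which was not examined. Ubb, named after its value was seen, was marked as having too many reads for an estimate, so its listed 0 in both groups is not a level.

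**Figure D4:**
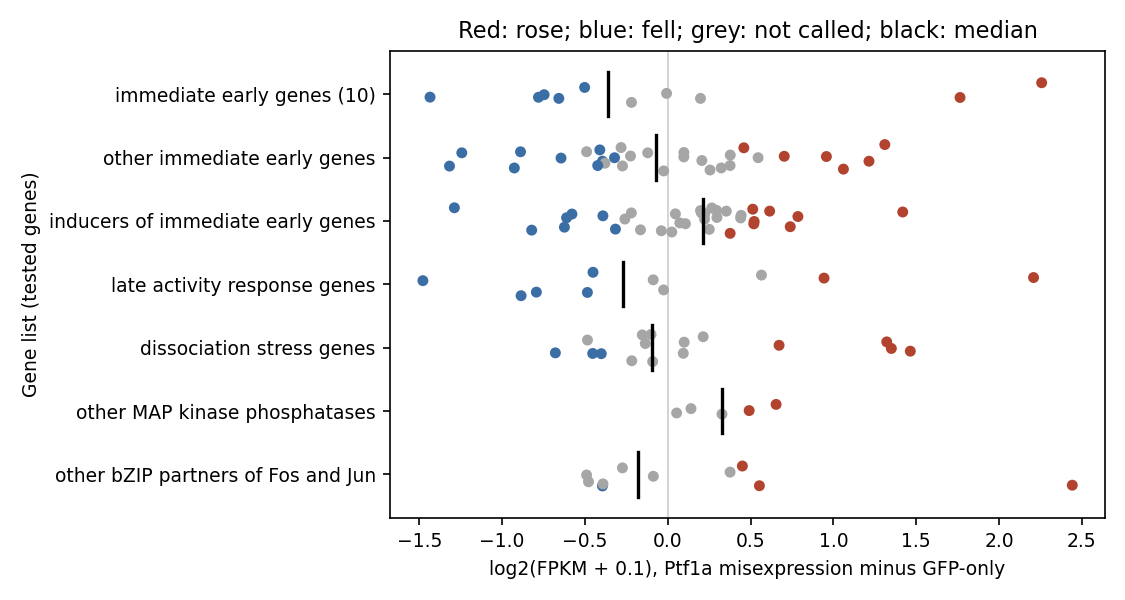
Difference in log2(FPKM + 0.1), Ptf1a misexpression minus GFP-only, of every tested gene of the 7 lists, with red points for genes that rose, blue for genes that fell, grey for genes not called and a black bar at the list's median. The 10 immediate early genes spread from -1.44 for Npas4 to 2.26 for Arc, the MAP kinase phosphatases lie above 0, and the remaining lists hold genes on both sides.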

How the data were processed

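Total RNA (2.1 to 7.8 ng per sample, integrity number over 8) was amplified by a low-input method and read as 50 bp pairs, per the labels' protocols. Per the submitters' processing notes, the build was mm9 and the tools were Cuffdiff, Cufflinks 2.1.1, TopHat2 2.0.8 and CASAVA 1.8.2; the Cuffdiff version, annotation and parameters are not given in the sources used here. The deposited FPKM is 1 value per group and gene, and the authors' log2 fold is Ptf1a over GFP-only, per the file headers. The authors' test statistic is a score with a sign, and the p-value and q-value are the authors' own. Of 23234 rows, 11876 carried a test, and calls at q under 0.05 equalled the authors' own mark in every row.

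From these values log2(FPKM + 0.1) differences, implied standard errors, bin medians and a Benjamini-Hochberg adjustment of normal p-values were computed (Python 3.11.15, pandas 2.3.3, numpy 2.4.6) and checked on simulated data. Of the tested rows, 45 had no finite statistic and took no part in the normal p. Starts in the table were read as counting from 0, since the single-exon gene Ier2 then spans 1522 bases, its annotated transcript length. The genes and lists were chosen with earlier results of these data known. Named are the 10 genes, Ptf1a, and from each other list up to 4 called genes of largest difference and up to 2 uncalled ones of highest level; any other gene is said to have been named after its values were seen. Some genes that this rule names are not reported here. Alternatives covered the q threshold, FPKM and fold minimums, the pseudocount, centring, rescaling and the normal p.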

Additional observations from a re-analysis of the deposited data

How the results depend on the processing

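With 1 value per group, leaving out a sample was not possible. No paired analysis was possible because the table holds no values of single samples. For the 10 immediate early genes the 7 calls became 4 with a minimum of 5 FPKM in the higher group. They became 3 at 2-fold or more and 3 with the normal p of the test statistic, and stayed within 1.5 times otherwise. The FPKM minimum kept Egr1, Jun, Nr4a1 and Dusp1 and left out Arc, Npas4 and Junb. The 2-fold minimum and the normal p each kept Egr1, Arc and Npas4, so only Egr1 was kept by all 3 of these alternatives. The median difference of the 10 genes, -0.36, ranged from -0.53 (against bins of like abundance) to -0.09 (rescaled). With the normal p, calls numbered 5 among other immediate early genes, 1 among inducers, 1 among late response genes, 3 among dissociation genes, 0 among other MAP kinase phosphatases and 1 among bZIP partners. At 2-fold or more they numbered 5, 2, 2, 3, 0 and 1 in the same order. These lists held 30, 34, 10, 16, 5 and 10 tested genes. Over all tested genes the normal p called 6.1%, and the deposited q called 8.54% at 2-fold or more and 20.7% at 1.5-fold or more. Shares over all tested genes at q under 0.01 and at 5 FPKM were not computed. At q under 0.01 there were 9 other immediate early genes, 9 inducers, 1 phosphatase and 2 bZIP partners. At 5 FPKM or more there were 5 inducers, 2 late response genes, 1 phosphatase and 2 bZIP partners, and at 1.5-fold or more 8 inducers, 1 phosphatase and 1 bZIP partner. The median of the dissociation genes, -0.10, was 0.18 against bins of like abundance and 0.19 when rescaled. Fewer genes pass a stricter threshold by construction; for the normal p, the cause was not tested. Rescaling moved the median of all tested genes up by 0.28, so the rescaled medians of other immediate early genes (0.21), late response genes (0.01), dissociation genes and bZIP partners (0.09) are positive through that common shift and say nothing of these lists. No called immediate early gene changed direction under the pseudocounts, centrings or rescaling tried.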
